A study of Rattus norvegicus with 10 samples.

Results

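Respiratory complex I, the NADH:ubiquinone oxidoreductase of the inner mitochondrial membrane, was examined through the nuclear genes of its subunits and assembly factors in rat nucleus pulposus cells with and without knockdown of Bnip3. Members were chosen by name: every gene of the array annotation whose symbol begins with Nduf followed by a, b, c, s, v, af or ab, apart from Ndufa4 and Ndufa4l2, together with Timmdc1, Foxred1, Nubpl, Ecsit, Acad9, Tmem126b and Lyrm2. The annotation names 44 such genes among 15037, each with 1 probeset. They comprise 31 structural subunits, 12 assembly factors and Ndufa10l1, a gene named as a copy of Ndufa10 that was put in no module. No named probeset was found for Ndufs6, Ndufa3, Ndufa8, Ndufb1, Ndufc1, Ndufaf2, Ndufaf3 or Foxred1, which were not analysed here.

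The ShBNIP3 group was made up of 5 arrays of cells transduced with lentivirus for a short hairpin RNA against Bnip3, a mitophagy receptor of the outer mitochondrial membrane. The ShCtrl group held 5 arrays of cells that received a control hairpin in the pLKO.1 vector. All cells were isolated from the nucleus pulposus, the gelatinous core of the intervertebral disc, of male Sprague Dawley rats of 300 g and 3 to 4 months of age, and RNA was taken 4 days after transduction. Arrays carry the numbers of their titles, 6 to 10 for ShBNIP3 and 1 to 5 for ShCtrl. Separate cultures or animals are not stated for the arrays within either group, and the p-values therefore rest on a spread among arrays that may be technical. The extraction text also mentions mouse disc tissue, which matches neither group and was not used.

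Complex I takes electrons from NADH and passes them to ubiquinone while protons are pumped across the membrane. Its matrix arm consists of the N module, which oxidises NADH, and the Q module, which reduces ubiquinone. Its membrane arm is divided into a proximal and a distal part. Core subunits carry the flavin and the iron-sulfur clusters, accessory subunits surround them, and assembly factors help to build the enzyme without remaining in it. The core subunits of the membrane arm are encoded by mitochondrial DNA and were not analysed here. Nucleus pulposus cells live in a tissue with few blood vessels and little oxygen and are known to depend largely on glycolysis.

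The letters just upstream of the annotated transcription start are given for the 3 structural subunits with the largest rises, Ndufa1, Ndufb4 and Ndufa7, because the promoters of complex I genes are known to hold sites for regulators of mitochondrial biogenesis. Each stretch has 250 bases, 5′ to 3′ on the strand of the gene, from RefSeq on build GRCr8. Capitals mark CCGGAAG, a lettering of the ETS family and GABP, ATGGCGG, a lettering of YY1, and GCGCATGC, a lettering of NRF1, on either strand. The Ndufa1 stretch lies at chrX:121293556-121293805 on the minus strand, that of Ndufb4 at chr11:76568928-76569177 on the plus strand and that of Ndufa7 at chr7:15311196-15311445 on the plus strand.
Ndufa1: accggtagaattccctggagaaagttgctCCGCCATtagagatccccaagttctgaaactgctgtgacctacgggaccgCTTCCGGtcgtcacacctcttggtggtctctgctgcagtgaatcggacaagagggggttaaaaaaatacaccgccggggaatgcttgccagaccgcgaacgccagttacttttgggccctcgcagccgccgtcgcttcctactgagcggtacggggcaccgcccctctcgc
Ndufb4: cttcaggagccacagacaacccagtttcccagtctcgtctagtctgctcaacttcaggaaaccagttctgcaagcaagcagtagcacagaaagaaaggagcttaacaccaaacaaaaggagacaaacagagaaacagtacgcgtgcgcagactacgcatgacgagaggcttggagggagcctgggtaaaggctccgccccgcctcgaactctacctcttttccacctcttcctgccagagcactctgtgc
Ndufa7: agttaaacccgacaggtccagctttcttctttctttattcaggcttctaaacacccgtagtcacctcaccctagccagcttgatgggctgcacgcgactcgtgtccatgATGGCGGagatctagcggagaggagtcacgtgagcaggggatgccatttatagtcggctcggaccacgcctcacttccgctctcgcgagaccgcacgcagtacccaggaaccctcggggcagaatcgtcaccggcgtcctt
The Ndufa1 stretch held the YY1 lettering and the ETS lettering, each on the opposite strand. In the Ndufa7 stretch the YY1 lettering occurred on the strand of the gene. That of Ndufb4 held none of the 3 letterings.

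Knockdown was checked first on the targeted gene. Bnip3 had log2 levels of 11.14, 11.26, 10.59, 11.31 and 12.68 on ShBNIP3 arrays 6 to 10, against 14.29, 14.29, 13.94, 15.97 and 14.54 on ShCtrl arrays 1 to 5. Its levels did not overlap, and array 10 was the highest of the ShBNIP3 arrays and array 4 the highest of the ShCtrl arrays. The difference of −3.21 (SE 0.40, limma adjusted p = 0.0002) left 10.8% of the ShCtrl level. Permuting the arrays between the groups (exact, two-sided) gave p = 0.00794 for the difference in means, the smallest value possible with 5 arrays against 5. Array medians lay between 6.18 and 6.22, and the mean correlation of an array with the others of its group was 0.983 for ShCtrl array 4, 0.986 for ShBNIP3 array 10 and 0.992 for the other 8. For the complex I genes, calls that changed without those 2 arrays are stated with the gene.

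The label of the cells was compared with marker genes. Of 12 measured nucleus pulposus markers, Acan and Col2a1, genes of the cartilage-like matrix, and Car3, a carbonic anhydrase gene, were above background on all arrays, whereas Krt8, Krt18, Krt19, Tbxt, Shh and Gpc3 were under background on all arrays. Col2a1 and Car3 fell by 0.67 and 1.29, and Cdh2, a cadherin gene that was under background on the 5 ShCtrl arrays, rose (limma adjusted p = 0.0133, 0.0048 and 0.000523). Acan differed by −0.90 (adjusted p = 0.19) with all arrays, and it fell by 0.97 (adjusted p = 0.0201) without ShBNIP3 array 10 and ShCtrl array 4, as it also did without ShBNIP3 array 10 alone (adjusted p = 0.0276). Car12 differed by −1.65 (limma adjusted p = 0.106), and by −0.95 (adjusted p = 0.0367) without ShBNIP3 array 10 and ShCtrl array 4. It was under background on 5 of 5 ShBNIP3 arrays and 3 of 5 ShCtrl arrays. Cd24 differed by −0.16 (limma adjusted p = 0.544). The mean log2 level of the 12 markers was 6.08 to 6.25 on ShBNIP3 arrays and 6.28 to 6.83 on ShCtrl arrays. The endothelial list (6 of 6 genes), the skeletal muscle list (8 of 8) and the erythroid list (3 of 3) were under background on all arrays, although the muscle myosin gene Myh2 passed the test at that level (adjusted p = 0.0466, and 0.0635 without ShBNIP3 array 10 and ShCtrl array 4). Of 8 macrophage and leukocyte markers, 6 were under background on all arrays, among them Ptprc, and 2 rose, the lysosomal protein gene Cd68 by 1.499 and the lipopolysaccharide co-receptor gene Cd14 by 1.12 on the log2 scale (limma adjusted p = 0.00178 and 0.00703). The mean log2 level of that list was 5.14 to 5.54 on ShBNIP3 arrays and 4.84 to 5.27 on ShCtrl arrays. Of 8 fibroblast and annulus markers, the collagen genes Col1a1, Col1a2 and Col3a1 fell by 0.40, 0.37 and 0.71, with a mean level of the list of 12.74 to 13.19 on ShBNIP3 arrays and 13.00 to 13.25 on ShCtrl arrays. Col1a2 did not pass without ShBNIP3 array 10 and ShCtrl array 4 (adjusted p = 0.0552), or in 7 of the 10 fits without 1 array (ShCtrl 1, 2 or 3, or ShBNIP3 6, 8, 9 or 10, adjusted p up to 0.0797). The part of these markers in the complex I results was not tested. In such bulk samples fewer cells of a type and less RNA per cell cannot be told apart.

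The complex I transcripts that passed the test were higher in ShBNIP3 cells. The log2 level of 11 of the 44 members rose (25%) and that of 0 fell, at a Benjamini-Hochberg adjusted p under 0.05 in limma, a linear model with a shared variance estimate that was fitted over all 23188 probesets. In the same fit 7.61% of all probesets rose, 7.87% fell and 15.5% changed in either direction, and among the 11761 probesets above background on at least 1 array 13.7% rose. Ndufaf4 was above background only on ShBNIP3 arrays, and of the other 43 members 10 rose (23.3%). At an unadjusted p under 0.05, 20 members were higher and 0 lower, against 14% and 12.7% of all probesets. In the fit without ShCtrl array 4, 1 member, Ndufv3, fell. The median log2 difference of the members was 0.28 (interquartile range 0.07 to 0.42), against 0.02 over all probesets, with 36 members above 0 and 8 below it. Every ShBNIP3 array lay above every ShCtrl array for 12 members (27.3%), against 6.6% of all probesets. The shares of 6.6%, 14% and 12.7% include 11427 probesets that were under background on all arrays, where 0 of the members were. These 3 shares were not counted over probesets above background.

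The rises were small. Fold changes of the 11 members that rose ran from 1.31 to 1.78, and none of the 44 members reached the fold of 2 that the labels name. For each of the 33 members that did not pass the test, the 95% interval of the log2 difference lay within 0.85 of 0, so a change of 2-fold was outside it. The 11 members that rose lie on 9 chromosomes and the 44 members on 16. With all arrays each module held at least 1 of the rises, as the plot of differences by module shows. Their share was lowest in the N module (11.1%), against 7.61% of all probesets and 13.7% of those above background. It was 16.7% in the assembly factors, 20% in the Q module, 33.3% in the proximal arm and 36.4% in the distal arm. That order rested on few genes and was not kept in every fit. Without ShBNIP3 array 10 and ShCtrl array 4, the Q module had 0 rises and the N module 1.

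**Figure D1:**
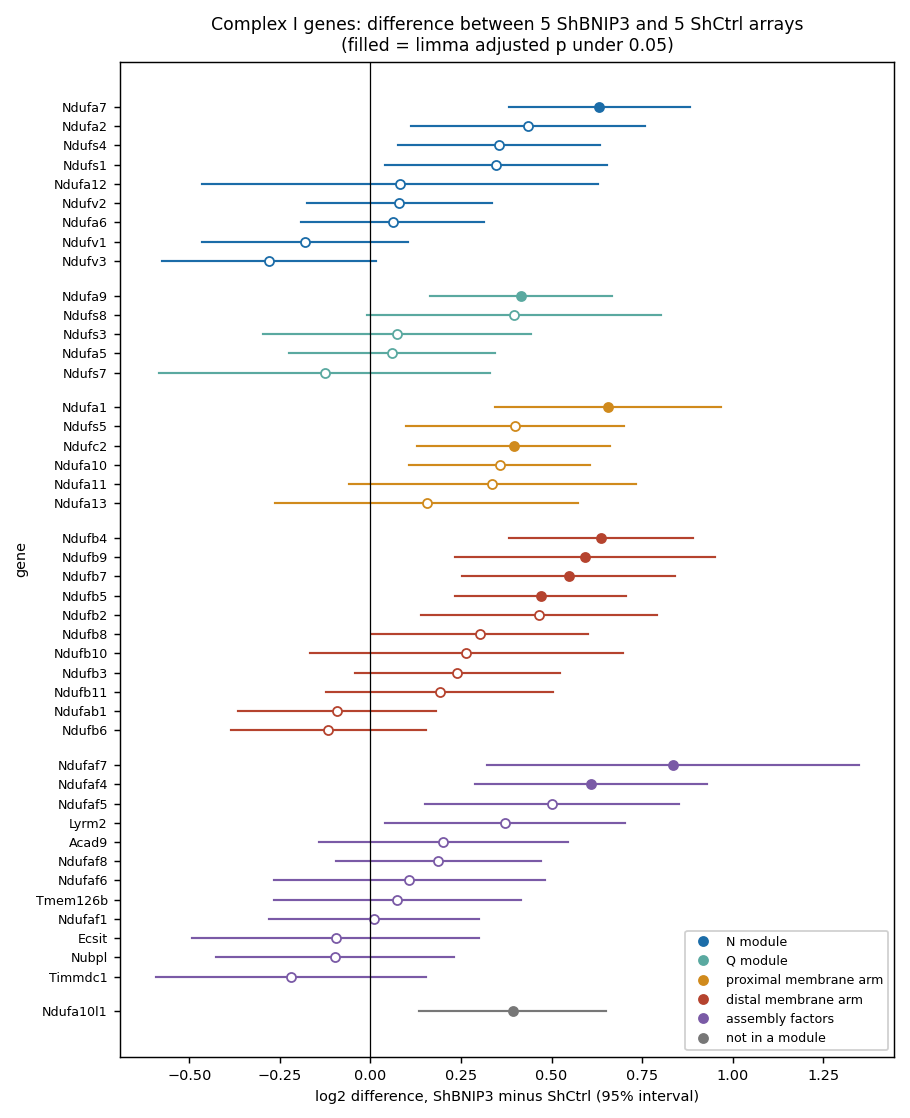
Log2 difference between 5 ShBNIP3 and 5 ShCtrl arrays (x axis, ShBNIP3 minus ShCtrl) for each of the 44 complex I genes (y axis), coloured by module, with 95% intervals as lines and filled points for genes past a limma adjusted p of 0.05. The 11 filled points all lie to the right of 0, and 8 open points lie to its left.

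Within the N module, the NADH-oxidising tip, 1 of 9 measured subunits rose and the median log2 difference was 0.08. The one that rose was Ndufa7, an accessory subunit. Its log2 levels were 12.92, 13.01, 12.97, 12.99 and 13.16 on ShBNIP3 arrays 6 to 10, against 12.19, 12.36, 12.34, 12.65 and 12.35 on ShCtrl arrays 1 to 5. The groups did not overlap, and the lowest ShBNIP3 array was above ShCtrl array 4, the highest of the controls. The difference was 0.63 (SE 0.12, 1.55-fold, limma adjusted p = 0.00257), the lowest adjusted p of the 44 members.

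The core subunits of the N module did not pass the test. Ndufv1, which binds NADH and the flavin, averaged 10.84 ± 0.14 in ShBNIP3 cells and 11.02 ± 0.22 in ShCtrl cells (SD, n = 5 each), a difference of −0.18 with a 95% interval of −0.47 to 0.10 (limma adjusted p = 0.441). Ndufv2, an iron-sulfur subunit beside it, averaged 13.28 ± 0.19 in ShBNIP3 cells and 13.20 ± 0.06 in ShCtrl cells, a difference of 0.08 with an interval of −0.18 to 0.33 (limma adjusted p = 0.75). Ndufs1, the large subunit that holds several iron-sulfur clusters, averaged 11.997 ± 0.15 in ShBNIP3 cells and 11.65 ± 0.26 in ShCtrl cells, a difference of 0.35 with an interval of 0.04 to 0.65 (limma adjusted p = 0.129). The 3 core subunits of this module thus had differences on both sides of 0.

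Ndufv3, a small accessory subunit next to the flavin-binding subunit, had the lowest difference of all members. Its log2 levels were 11.34, 11.38, 11.47, 11.33 and 11.31 on ShBNIP3 arrays 6 to 10, against 11.71, 11.61, 11.81, 11.20 and 11.90 on ShCtrl arrays 1 to 5. Only ShCtrl array 4 lay under the ShBNIP3 values, and the other 4 control arrays lay above all of them. The difference was −0.28 (SE 0.14, limma adjusted p = 0.217) with all arrays, and −0.38 (adjusted p = 0.0399) without ShBNIP3 array 10 and ShCtrl array 4. Without ShCtrl array 4 alone it was −0.39 (adjusted p = 0.03), so that Ndufv3 is the single member counted as lower in those 2 fits. The other accessory subunits of the module, Ndufa2 (0.44), Ndufs4 (0.35), Ndufa12 (0.08) and Ndufa6 (0.06), did not pass the test, and all 5 ShBNIP3 values of Ndufa2 lay above its ShCtrl values.

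In the Q module, where ubiquinone is reduced, 1 of 5 measured subunits rose and the median difference was 0.07. Ndufa9, an accessory subunit that lies close to the ubiquinone site, had log2 levels of 12.71, 12.76, 12.74, 12.71 and 12.90 on ShBNIP3 arrays 6 to 10, against 12.38, 12.20, 12.62, 12.20 and 12.34 on ShCtrl arrays 1 to 5. The groups did not overlap, and 4 of the ShBNIP3 arrays were almost equal while array 10 stood above them. The difference was 0.41 (SE 0.12, 1.33-fold, limma adjusted p = 0.0283). It no longer passed without ShBNIP3 array 10 and ShCtrl array 4 (0.34, adjusted p = 0.0735), nor in 7 of the 10 fits that each left out 1 array (ShCtrl 1, 2, 4 or 5, or ShBNIP3 7, 8 or 10), where the adjusted p reached 0.0745.

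The core subunits of the Q module did not pass the test. Ndufs3, which helps to frame the ubiquinone site, averaged 10.26 ± 0.27 in ShBNIP3 cells and 10.19 ± 0.30 in ShCtrl cells, a difference of 0.07 with a 95% interval of −0.30 to 0.44 (limma adjusted p = 0.852). Ndufs7, which holds the last iron-sulfur cluster before ubiquinone, averaged 7.89 ± 0.18 in ShBNIP3 cells and 8.02 ± 0.50 in ShCtrl cells, a difference of −0.13 with an interval of −0.58 to 0.33 (limma adjusted p = 0.781). Ndufs8, which holds the clusters before that one, averaged 12.22 ± 0.39 in ShBNIP3 cells and 11.82 ± 0.24 in ShCtrl cells, a difference of 0.40 with an interval of −0.01 to 0.80 (limma adjusted p = 0.199). Ndufa5, an accessory subunit, differed by 0.06. Over both modules of the matrix arm, 0 of 6 core subunits passed limma's test, 1 of them (Ndufs1) had an unadjusted p under 0.05, and their median difference was 0.08. Among the 25 accessory subunits of all modules 8 rose, with a median of 0.35. The difference between core and accessory subunits was not tested.

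In the proximal membrane arm, which joins the matrix arm to the membrane, 2 of 6 measured subunits rose and all 6 had positive differences (median 0.38). Ndufa1, a small membrane-spanning subunit at the foot of the matrix arm, had log2 levels of 10.31, 10.69, 10.21, 10.48 and 10.34 on ShBNIP3 arrays 6 to 10, against 9.84, 9.69, 9.35, 9.96 and 9.92 on ShCtrl arrays 1 to 5. The groups did not overlap, with ShBNIP3 array 7 highest and ShCtrl array 3 lowest. The difference of 0.66 (SE 0.14, 1.58-fold, limma adjusted p = 0.008) was the largest of any structural subunit, and it was 0.72 without ShBNIP3 array 10 and ShCtrl array 4.

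Ndufc2, another small membrane subunit, had log2 levels of 13.13, 12.80, 12.84, 12.74 and 13.08 on ShBNIP3 arrays 6 to 10, against 12.76, 12.46, 12.44, 12.40 and 12.54 on ShCtrl arrays 1 to 5. The groups touched, since ShCtrl array 1 was higher than ShBNIP3 array 9. The difference was 0.40 (SE 0.12, 1.31-fold, limma adjusted p = 0.0469). It did not pass without ShBNIP3 array 10 and ShCtrl array 4 (0.32, adjusted p = 0.115), in the fit with array weights (0.35), or in 8 of the 10 fits without 1 array, all except those without ShCtrl array 1 or ShBNIP3 array 9 (adjusted p up to 0.107).

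The other 4 subunits of the proximal arm did not pass the test. Ndufs5 (0.40, adjusted p = 0.0735) and Ndufa10 (0.36, adjusted p = 0.0552) had groups that did not overlap, Ndufs5 being a subunit of the intermembrane side and Ndufa10 a relative of nucleoside kinases. Ndufa11, a subunit with several membrane spans, differed by 0.34 and Ndufa13, which is also known as a cell death regulator, by 0.15, the lowest of the module (SE 0.19, limma adjusted p = 0.689). For both of these the groups overlapped widely.

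The distal membrane arm held the most rises, 4 of 11 measured subunits, with a median difference of 0.30. Ndufb4, an accessory subunit of the tip of the membrane arm, had log2 levels of 12.11, 11.89, 11.82, 11.98 and 11.94 on ShBNIP3 arrays 6 to 10, against 11.46, 11.47, 11.30, 11.27 and 11.06 on ShCtrl arrays 1 to 5. The groups lay well apart, with the lowest ShBNIP3 array above all controls. The difference was 0.64 (SE 0.12, 1.55-fold, limma adjusted p = 0.00266), the largest of the module.

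Ndufb5, a subunit that reaches into the intermembrane space, had log2 levels of 13.82, 13.54, 13.61, 13.41 and 13.59 on ShBNIP3 arrays 6 to 10, against 13.19, 13.09, 13.17, 13.07 and 13.10 on ShCtrl arrays 1 to 5. The 5 control arrays were nearly equal, and all ShBNIP3 arrays were above them. The difference was 0.47 (SE 0.11, 1.38-fold, limma adjusted p = 0.0105). Ndufb7, a peripheral subunit on the intermembrane side, had log2 levels of 8.96, 8.54, 8.65, 8.53 and 9.09 on ShBNIP3 arrays 6 to 10, against 8.27, 8.05, 8.23, 8.18 and 8.30 on ShCtrl arrays 1 to 5. ShBNIP3 arrays 6 and 10 were the highest, and the groups did not overlap. The difference was 0.55 (SE 0.14, 1.46-fold, limma adjusted p = 0.0154).

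Ndufb9, a subunit of the LYR family that binds the mitochondrial acyl carrier protein, had log2 levels of 13.95, 13.78, 13.50, 13.82 and 13.34 on ShBNIP3 arrays 6 to 10, against 13.17, 13.16, 13.44, 12.64 and 13.01 on ShCtrl arrays 1 to 5. Its groups overlapped, since ShCtrl array 3 was above ShBNIP3 array 10, and ShCtrl array 4 was the lowest of all. The difference was 0.59 (SE 0.17, 1.51-fold, limma adjusted p = 0.0287). It did not pass in the fits without ShCtrl array 2 or 5 or ShBNIP3 array 6, 7 or 9, where the difference was 0.52 to 0.61 and the adjusted p reached 0.0709.

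Among the 7 subunits of the distal arm that did not pass, Ndufb2 came closest, with 0.47 (limma adjusted p = 0.0553), and it passed without ShBNIP3 array 10 and ShCtrl array 4 (0.49, adjusted p = 0.0121). Ndufb8 (0.30), Ndufb10 (0.26), Ndufb3 (0.24) and Ndufb11 (0.19) had positive differences. Ndufab1, the acyl carrier protein itself, differed by −0.09, and Ndufb6 had the lowest difference of the module, −0.12 (SE 0.12, limma adjusted p = 0.628).

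Of the 12 assembly factors, 2 rose, and the median difference was 0.15. Their share of 16.7% was near the 13.7% that rose among probesets above background. Ndufaf7, a methyltransferase that acts during assembly, had log2 levels of 7.77, 7.34, 7.05, 7.85 and 7.36 on ShBNIP3 arrays 6 to 10, against 7.02, 6.77, 6.92, 5.74 and 6.75 on ShCtrl arrays 1 to 5. ShCtrl array 4 was far below the other controls and under background, and the lowest ShBNIP3 array was only just above the highest control. The difference was 0.84 (SE 0.24, 1.78-fold, limma adjusted p = 0.0307), the largest of the 44 members, and 0.64 (adjusted p = 0.0233) without ShBNIP3 array 10 and ShCtrl array 4. It did not pass in the fits without ShCtrl array 2 or 5 or ShBNIP3 array 6, 7 or 9 (differences of 0.74 to 0.87, adjusted p up to 0.0806).

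Ndufaf4, which acts early in the assembly of the Q module, had log2 levels of 6.46, 6.93, 6.86, 6.85 and 6.62 on ShBNIP3 arrays 6 to 10, against 6.15, 6.15, 5.72, 6.37 and 6.28 on ShCtrl arrays 1 to 5. The groups did not overlap. It was under background on 2 of 5 ShBNIP3 arrays and on 5 of 5 ShCtrl arrays, background being the 95th percentile of each array's background probesets. The measured difference was 0.61 (SE 0.15, limma adjusted p = 0.0134). The ShBNIP3 mean of Ndufaf4 was 1.07-fold above the mean background level of the ShCtrl arrays. Since that mean includes the 2 ShBNIP3 arrays under background, the fold is not a firm lower bound.

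The remaining 10 assembly factors did not pass the test. Ndufaf5 (0.50, adjusted p = 0.0558), which hydroxylates a Q module subunit, and Lyrm2 (0.37), an LYR protein, had the larger differences. The factors of the membrane-arm assembly complex lay around 0, with Acad9 at 0.20, Tmem126b at 0.07, Ndufaf1 at 0.01, Ecsit at −0.10 and Timmdc1, the lowest, at −0.22 (SE 0.17, limma adjusted p = 0.482). Tmem126b was under background on 4 of 5 ShBNIP3 arrays and 2 of 5 ShCtrl arrays. Ndufaf8 differed by 0.19, Ndufaf6 by 0.11 and Nubpl, which delivers iron-sulfur clusters, by −0.10.

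Ndufa10l1, the copy of Ndufa10, had log2 levels of 11.80, 11.67, 12.07, 11.98 and 11.70 on ShBNIP3 arrays 6 to 10, against 11.34, 11.52, 11.39, 11.38 and 11.61 on ShCtrl arrays 1 to 5. The groups did not overlap, although ShBNIP3 array 7 was close to ShCtrl array 5. The difference was 0.39 (SE 0.12, 1.31-fold, limma adjusted p = 0.0422). It did not pass in 7 of the 10 fits without 1 array (ShCtrl 1, 2, 3 or 4, or ShBNIP3 6, 8 or 9, adjusted p up to 0.103). How far its probes also detect Ndufa10 was not tested, so its value is uncertain as a measure of its own gene.

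**Figure D2:**
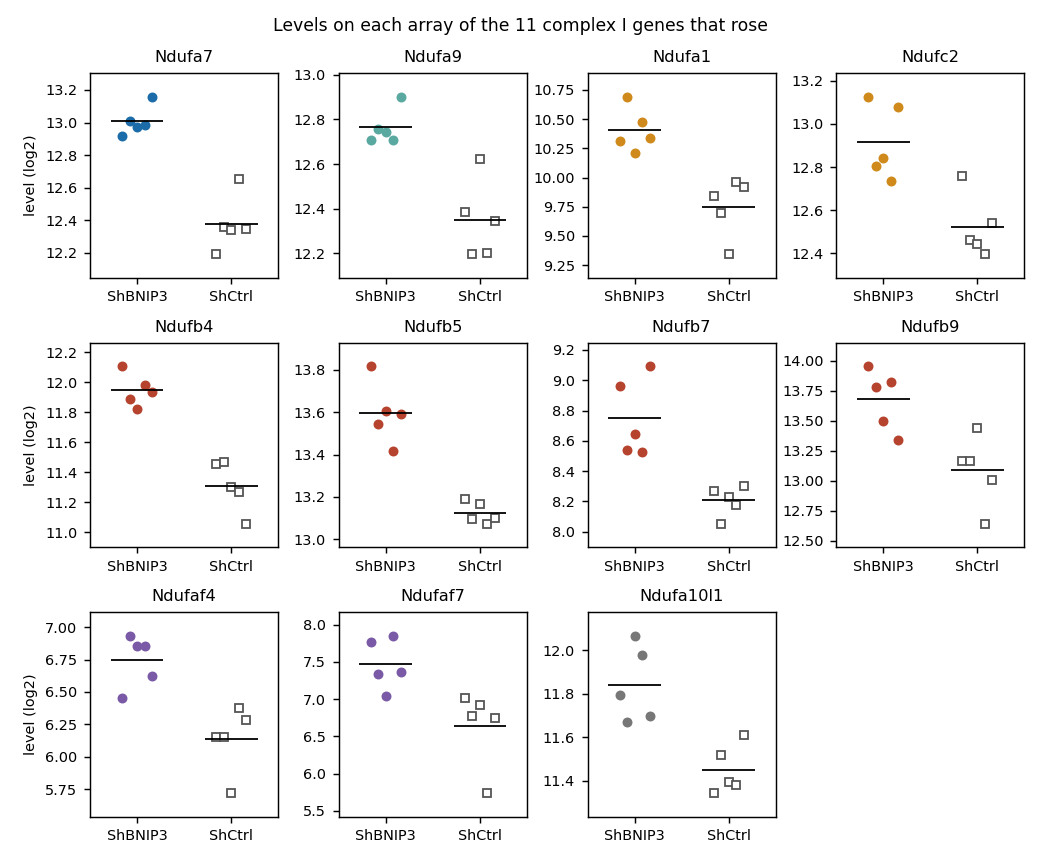
Log2 level on each array (y axis, a separate range in each panel that does not start at 0) of the 11 complex I genes that rose, with ShBNIP3 arrays as filled circles and ShCtrl arrays as open squares, and group means as lines. The groups overlap for Ndufc2 and Ndufb9, and ShCtrl array 4 stands far below the other controls for Ndufaf7, at 5.74.

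The count of 11 varied with single arrays. When each array was left out in turn, 6 to 10 members passed, the fewest (6) without ShCtrl array 2 and 7 without ShBNIP3 array 7. The 10 without ShCtrl array 4 were 9 that rose and Ndufv3, which fell. Ndufa7, Ndufa1, Ndufb4, Ndufb5, Ndufb7 and Ndufaf4 passed in all 10 of these fits. Their adjusted p-values stayed at or under 0.0431, the value of Ndufb7 in one of them.

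ShCtrl array 4 stood low for complex I genes. Relative to the mean of the other 4 ShCtrl arrays its median deviation over the 44 members was −0.35 on the log2 scale, and it gave the lowest ShCtrl value for 27 members and the lowest of all 10 arrays for 25. Over all 23188 probesets its median deviation was −0.02. Among the ShBNIP3 arrays, array 10 had a median deviation over the members of −0.12 and array 6 one of 0.19. The Q module showed the low position of both arrays most, at −0.57 for ShCtrl array 4 and −0.23 for ShBNIP3 array 10 around the mean of all arrays.

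**Figure D3:**
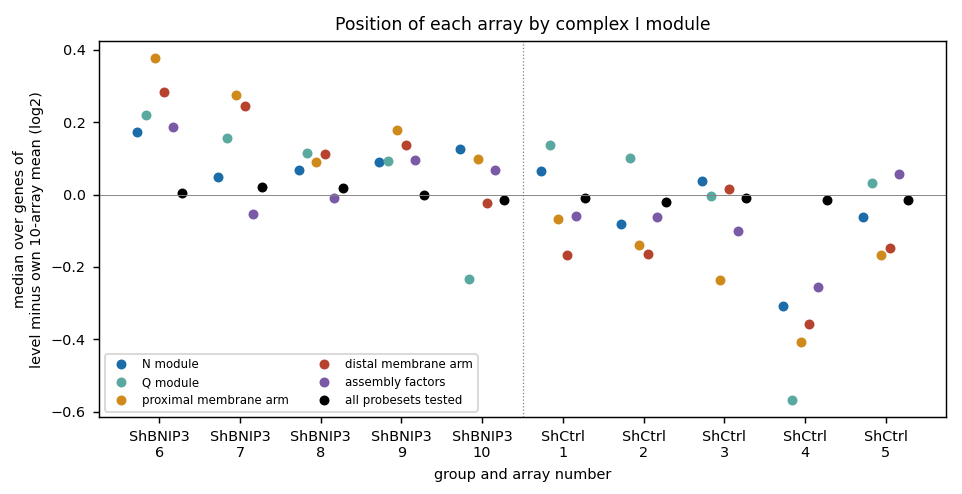
Median over the genes of each complex I module of the log2 level minus that gene's mean over all 10 arrays (y axis), for each array (x axis, ShBNIP3 arrays left, ShCtrl arrays right), with the same median over all probesets in black. ShCtrl array 4 is the lowest array for every module, and the black points stay between −0.02 and 0.02.

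Without these 2 arrays, 10 members rose and 1 fell, where 9.84% of all probesets rose and 10.1% fell. Of the 11 members that rose with all arrays, 9 also rose here. Ndufa9 and Ndufc2 no longer passed, and Ndufb2 (higher) and Ndufv3 (lower) did. The median difference was 0.27, with 34 members above 0 and 10 below it.

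**Figure D4:**
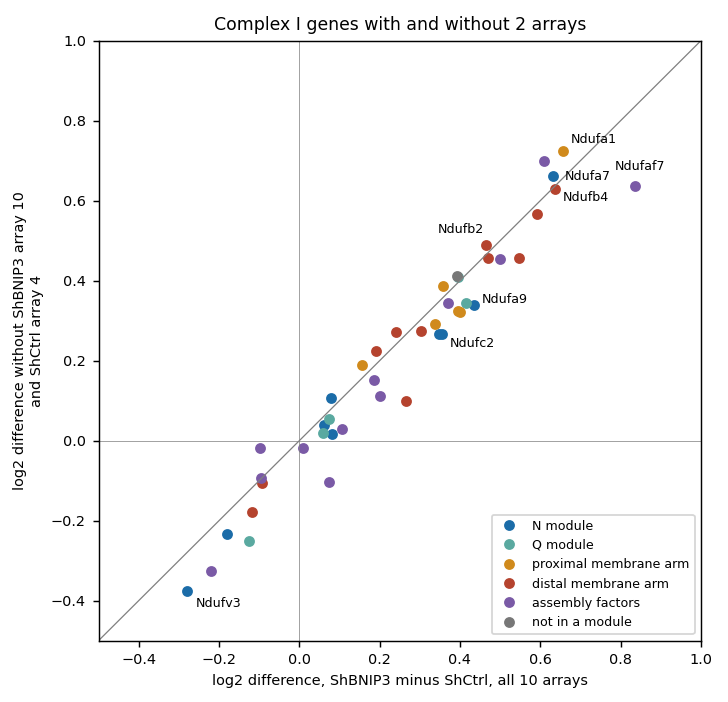
Log2 difference, ShBNIP3 minus ShCtrl, of the 44 complex I genes with all 10 arrays (x axis) and without ShBNIP3 array 10 and ShCtrl array 4 (y axis), coloured by module, with the line of equal values. Ndufaf7 lies furthest to the right, at 0.84 with all arrays and 0.64 without the 2, and Ndufv3 lies at −0.28 and −0.38.

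The number of members that passed also varied with the probesets over which p-values were adjusted. When only the 11761 probesets above background were fitted, 17 members rose. All 44 members entered that fit, but Ndufaf4 did so only through the group in which it was higher. Without it 16 of 43 members rose (37.2%), against 16.8% of the probesets fitted, some of which likewise entered through 1 group. The 11 members that rose in the fit of all probesets were among the 17, and Ndufa2, Ndufs4, Ndufs5, Ndufa10, Ndufb2 and Ndufaf5 joined them.

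The other respiratory complexes were set beside complex I by the same fit. In complex II, the succinate dehydrogenase, 0 of 6 genes rose and 1 fell, the membrane anchor gene Sdhc (−0.96, limma adjusted p = 0.0007). The median was 0.09. In complex III, 5 of 15 rose and 1 fell (median 0.38), with the assembly factor genes Ttc19 (1.01) and Uqcc2 (0.63) and the small subunit gene Uqcr10 (0.56) at the lowest adjusted p. In complex IV, the cytochrome c oxidase, 5 of 28 rose, Ndufa4 among them, and 4 fell (median −0.01), with the subunit gene Cox5b (−1.52) and the assembly factor genes Pet100 (0.79) and Coa3 (−0.79) at the lowest adjusted p. In the ATP synthase, 5 of 17 rose and 3 fell (median 0.33), with the c-ring genes Atp5mc2 (−1.46) and Atp5mc1 (−0.98) and the small subunit gene Atp5mk (0.62) at the lowest adjusted p. Complex III, complex IV and the ATP synthase thus held genes that changed in both directions. The share that rose was 33.3% in complex III, 29.4% in the ATP synthase and 17.9% in complex IV. It was 25% in complex I and 7.61% of all probesets. The medians of complex III and the ATP synthase were above that of complex I (0.28), and those of complexes II and IV were below it. Whether complex I differed from the other complexes was not tested.

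Ndufa4 and Ndufa4l2 carry complex I names but belong elsewhere, Ndufa4 being a subunit of complex IV and Ndufa4l2 its relative that is induced by low oxygen. Ndufa4 had log2 levels of 13.85, 13.60, 13.50, 13.29 and 13.43 on ShBNIP3 arrays 6 to 10, against 13.15, 13.02, 12.95, 12.51 and 12.71 on ShCtrl arrays 1 to 5, with no overlap and a difference of 0.67 (SE 0.15, limma adjusted p = 0.00889). Ndufa4l2 had 13.52, 13.34, 13.41, 13.80 and 13.67 on ShBNIP3 arrays 6 to 10, against 16.56, 16.45, 16.45, 16.57 and 16.75 on ShCtrl arrays 1 to 5. It lay far lower on every ShBNIP3 array, with a difference of −3.01 (SE 0.12, limma adjusted p = 4.36e-08).

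Further lists of genes that work beside complex I had few members that passed the test. Of 5 complex I assembly genes outside the name rule, Aifm1, which serves the import of proteins into the intermembrane space, rose by 0.92 (limma adjusted p = 0.00226) and Dmac2, a distal membrane-arm assembly gene, fell by 1.17 (adjusted p = 0.00055). Of 12 genes of coenzyme Q synthesis and handling, Coq10b, a lipid-binding chaperone of ubiquinone, rose by 0.97 (adjusted p = 0.00785) and Coq4 fell (adjusted p = 0.00547), with only a bound for its level in ShBNIP3 cells, where it was under background on all 5 arrays. Of 66 mitochondrial ribosome genes 7 rose and 4 fell (median 0.15), with Mrpl54 (0.88), Mrpl42 (0.88) and Mrpl37 (−1.13) at the lowest adjusted p. In the last 2 lists the shares were near the 7.61% that rose and the 7.87% that fell among all probesets.

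Regulators of nuclear genes for mitochondrial proteins mostly did not pass the test. Of 11 such genes 1 rose, the coactivator gene Pprc1, by 0.63 (limma adjusted p = 0.0111). Nrf1 differed by 0.01, Yy1 by 0.24, Tfam by −0.10, Gabpb1 by 0.27, Esrra by 0.18 and Gabpa by 0.33. All 5 ShBNIP3 values of Gabpa lay above its ShCtrl values, at an adjusted p of 0.086. Nfe2l2 differed by −0.54 with all arrays (adjusted p = 0.124), and it fell by 0.59 (adjusted p = 0.00299) without ShBNIP3 array 10 and ShCtrl array 4, as it also did without ShCtrl array 4 alone (adjusted p = 0.00883). Esrrg, Ppargc1a and Ppargc1b were under background on all arrays.

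The printed promoters were compared with those of the other members. RefSeq windows of 250 bases before and 50 after the start were matched for 41 of the 44 members, all but Ndufaf6, Ndufa10l1 and Ndufb9, and 5 letterings were searched on both strands. CCGGAAG was found in 13 of the 41 windows (31.7%), against 8.75% of all 33469 windows and 13.1% of those of genes named on the array. ATGGCGG was found in 12 (29.3%), against 4.8% and 7.23%. GCGCATGC was found in 4 (9.76%), against 2.47% and 3.71%. The other 2 letterings, CCAAT of NF-Y in 14 windows (34.1%, against 37.5% and 37.7%) and ACGTG of the hypoxia-inducible factors in 10 (24.4%, against 19.3% and 22%), had shares near those of all genes. GCGCATGC and ACGTG can each overlap with themselves on the opposite strand, and a window counts once.

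The letterings occurred in windows of members that rose and of members that did not. Of the 9 windows of members that rose, CCGGAAG was in 2, ATGGCGG in 3, GCGCATGC in 1, CCAAT in 1 and ACGTG in 2. Of the 32 windows of the other members, they were in 11, 9, 3, 13 and 8. Counted from the start, with negative numbers upstream, the YY1 lettering of Ndufa7 begins at −141, and ACGTG was found there on both strands, at −115 and −114. In Ndufa1 the ETS lettering begins at −171, with a further match at 7, and the YY1 lettering at −221. Upstream matches of ATGGCGG were otherwise found only in Ndufa6, Ndufa13 and Ndufs1. After the start, at 6 to 30 and on the strand of the gene, ATGGCGG was found in Ndufa2, Ndufa6, Ndufs4, Ndufa9, Ndufs7, Ndufa13, Ndufb8, Lyrm2 and Ndufaf8. The share of windows with ATGGCGG is therefore largely made up of matches downstream of the start. A match of letters describes the sequence and does not show that a factor binds there, and the windows were not related to the size of the differences.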

How the data were processed

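Total RNA of 10 samples was hybridised to rat whole-transcript arrays. Each deposited value is the log2 level of 1 probeset on 1 array, made by the authors with GeneChip WT Plus labelling and sst-rma normalization, per the labels' protocols. Transcriptome Analysis Console software is named in the submitters' processing notes, with its version not given in the sources used here. A detection filter and a fold change of 2 are listed in the labels, which the deposited table does not show as a filter, since control and background probesets are in it. Values were used as deposited, and all 10 columns were used. The table has 24834 probesets, and without 1646 controls 23188 were tested, 15049 with a single gene symbol and 8139 without one. RefSeq genes of assembly GRCr8 include all 44 members. No member shares its values with another probeset.

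ShBNIP3 minus ShCtrl was fitted over the 23188 probesets by lmFit and eBayes of limma 3.58.1, under R 4.3.3, with Benjamini-Hochberg adjustment over all of them and a threshold of 0.05. The scripts were tested on simulated data with known changes. An array's background is the 95th percentile of its 23 background probesets, and a probeset counts as above background if it exceeds this on at least 1 array. Genes with statistics in the text are each member that passed, Ndufa1, Ndufb4, the core subunits, the extremes of each module, members whose call changes without ShBNIP3 array 10 and ShCtrl array 4, and in each comparison list the genes that passed (the 3 with the lowest adjusted p where over 5 did). Members, lists, tests and alternatives were chosen with earlier results of these data known. The 5 promoter letterings were kept after other spellings had been looked at. For arrays, their number limits the precision.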

Additional observations from a re-analysis of the deposited data

Results flagged for a closer look

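For the 44 members and Bnip3, the 5 arrays of each group were examined for a value far from the other 4, which gave 7 such values among 90 sets, where chance gives about 1 in 20. Of these, 3 came from ShCtrl array 4, which was low each time. Ndufaf7, the methyltransferase gene that rose, had a log2 level of 5.74 there, against 6.75 to 7.02 on the other ShCtrl arrays. Ndufs3, a core Q module gene, had 9.66, against 10.26 to 10.41. Ndufs5, of the proximal arm, had 10.94, against 11.36 to 11.51. ShBNIP3 array 10 gave 2 of the values and was high in both. Ndufa9, the Q module gene that rose, had 12.90 there, against 12.71 to 12.76 on the other ShBNIP3 arrays, and Ndufaf6 had 7.78, against 7.11 to 7.29. The last 2 were high values of single control arrays. Ndufab1, the acyl carrier protein gene, had 10.96 on ShCtrl array 3, against 10.43 to 10.57 on the others, and Nubpl had 7.72 on ShCtrl array 5, against 7.11 to 7.27. ShCtrl array 4 and ShBNIP3 array 10 are also the arrays that correlated least with their groups.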

How the results depend on the processing

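Of 748 member differences under alternatives, 665 kept their direction and side of the threshold, 35 lost it, 28 passed it and 20 changed sign. Against 11 members that passed with all arrays, 17 passed among probesets above background and 17 among the brighter probesets, with fewer probesets tested, 20 passed at an unadjusted p under 0.05 (all higher, as were 14% of all probesets) and 6 at a fold of at least 1.5 as well, and 6 to 10 passed when 1 array was left out. In the N module, 3 passed in each of the 2 restricted fits, 2 with quantile normalization and 2 without arrays 4 and 10, and 1 to 2 without 1 array. The Q module had 0 without arrays 4 and 10 and 0 to 1 without 1 array. The proximal arm had 4 in each of the 2 restricted fits, 1 without arrays 4 and 10 and 1 to 2 without 1 array, and the assembly factors had 1 to 3 without 1 array. The median difference of the members was 0.21 to 0.31 when 1 array was left out. Without arrays 4 and 10 and with array weights, the Ndufaf1 log2 difference was −0.0179 and −0.0136 and the Tmem126b log2 difference −0.1038 and −0.0353. With 1 array left out, differences ran from −0.12 to 0.22 for Ndufa12, −0.0118 to 0.10 for Ndufa5, −0.0598 to 0.19 for Ndufs3, −0.31 to 0.0207 for Ndufs7, −0.13 to 0.0008 for Ndufab1, −0.17 to 0.0530 for Ecsit, −0.0639 to 0.0755 for Ndufaf1, −0.0136 to 0.17 for Ndufaf6, −0.15 to 0.0073 for Nubpl and −0.0183 to 0.16 for Tmem126b. None of these 10 genes passed the test with all arrays. Where the alternative does not itself test fewer probesets or arrays, the cause was not tested. No paired analysis was possible because the groups share no replicate numbers. Signal near background limits Ndufaf4, Ndufaf7 and Tmem126b.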
